A study of Danio rerio with 16 samples.

Results

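Transcripts of the collagen chains were followed in pooled zebrafish embryos, homozygous mutant for the fibrillin gene *fbn3* (*fbn3*-/-) or wild type (WT), at 1 and 2 days postfertilization (dpf). Members were taken by symbol alone, as every entry of the gene table whose name begins with col, a type number, the letter a and a chain number. This pattern fitted 56 of 32520 entries. Of these, 54 encode a collagen chain, under 52 symbols. The other 2, *col4a3bpa* and *col4a3bpb*, encode ceramide transfer proteins and were left out of every count below. *col6a3* and *col19a1* each stand on 2 entries (ENSDARG00000077139 and ENSDARG00000095915 for *col6a3*, ENSDARG00000076163 and ENSDARG00000096073 for *col19a1*), and in the RefSeq annotation of assembly GRCz12tu both entries of a pair fall on the same gene, so that the reads of these genes may be split and each such entry is uncertain.

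Collagens are secreted or membrane-bound proteins that assemble from 3 chains wound into a helix. Fibrillar collagens (types I, II, V, XI, XXIV and XXVII here) form the banded fibrils that give skin, tendon, bone and cartilage their tensile strength, and FACIT collagens (fibril-associated collagens with interrupted helices) sit on the surface of such fibrils. Type IV builds the sheet-like network of basement membranes, type VII anchors the epidermal basement membrane to the tissue below, type VI forms beaded microfibrils, types VIII and X form hexagonal networks, and type XVII crosses the membrane of basal keratinocytes. In the zebrafish embryo the notochord sheath, the fin folds, the skin and the early cartilages are known collagen-rich tissues. Fibrillins, the proteins that *fbn3* belongs to, form microfibrils of the same extracellular matrix.

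RNA was extracted from pools of 10 whole embryos, and each pool gave 1 stranded total RNA library. *fbn3*-/- embryos came from 1 stable line, made with Cas9 in eggs carrying a GFP reporter, either Tg(mpx:GFP) or Tg(kdrl:EGFP), and backcrossed to WT fish of the AB background. They are homozygous for a 4 bp frameshift deletion in exon 4 of *fbn3*, which the gene table lists as *fbn2b* (ENSDARG00000098237). The groups were *fbn3*-/- at 1 dpf (n = 3 libraries), WT (*fbn2b* +/+) at 1 dpf (n = 4), *fbn3*-/- at 2 dpf (n = 5) and WT at 2 dpf (n = 3). The p-values below therefore measure the spread between pools. In whole embryos, fewer cells of a type and less RNA per cell cannot be told apart.

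Library totals ranged between 41473603 and 179887580 gene counts. *fbn2b* was at 19.5 to 28.7 CPM (counts scaled to a common library size) in *fbn3*-/- at 1 dpf, against 103 to 337 in WT, and at 15.1 to 20.7 CPM in *fbn3*-/- at 2 dpf, against 163 to 239 in WT, with no overlap. Libraries with low and with high library numbers separated on the second dimension of a multidimensional scaling of all genes, and all 3 *fbn3*-/- libraries of 1 dpf carry low numbers, whereas the other groups hold both kinds. The labels name no batch. Some WT libraries stood apart in the collagens. WT replicate 4 had the lowest value of the 4 WT libraries of 1 dpf in 43 of 54 chains, against 24.3% of all genes tested, and WT replicate 2 had the lowest of the 3 WT libraries of 2 dpf in 45 of 54 chains, against 26.9% of all genes. At the other end, WT replicate 5 of 1 dpf was the highest of its group in 30 of 54 chains (26.4% of all genes). WT replicate 3 of 2 dpf was the highest of its group in 34 of 54 (30.7%). For some of the chains that rest on these libraries, fold changes are given with and without them. Mean shares of counts are given with all libraries. Markers of basal epidermis, fin fold, cartilage, notochord, osteoblast, muscle, tendon and sclerotome, endothelium, neutrophil and macrophage were read as 10 lists. None of them was called between the genotypes, beside 0.00425% of all genes at 1 dpf and 0.178% at 2 dpf. At shares this low, the absence of calls cannot show equal cell composition. At 1 dpf, p of edgeR's quasi-likelihood test was under 0.05 before adjustment in 6 of 8 fin fold entries and 3 of 8 cartilage markers (7.34% of all genes).

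Collagen transcripts made up about 1% of all gene counts. The share was 1.15% ± 0.067 (SD, n = 5) in *fbn3*-/- and 1.39% ± 0.269 (n = 3) in WT at 2 dpf, and 1.08% ± 0.022 (n = 3) in *fbn3*-/- and 0.951% ± 0.229 (n = 4) in WT at 1 dpf. The *fbn3*-/- and WT libraries overlapped at both stages. WT replicate 4 of 1 dpf was at 0.635%, and the other WT libraries of that stage were at 0.951% to 1.17%. WT replicate 2 of 2 dpf was at 1.11%, and WT replicates 1 and 3 were at 1.40% and 1.65%. *col2a1a*, the type II chain of cartilage and notochord, took 13.2% of all collagen counts, and the 6 chains with most counts (*col2a1a*, *col1a1a*, *col1a1b*, *col1a2*, *col11a1a* and *col2a1b*, all fibrillar) took 52.3%. The share of the 3 type I chains was 0.315% ± 0.020 in *fbn3*-/- and 0.479% ± 0.137 in WT at 2 dpf, and 0.216% ± 0.0055 in *fbn3*-/- and 0.213% ± 0.073 in WT at 1 dpf. The type VI share was 0.0530% in *fbn3*-/- and 0.0479% in WT at 2 dpf, and 0.0135% in both genotypes at 1 dpf.

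**Figure D1:**
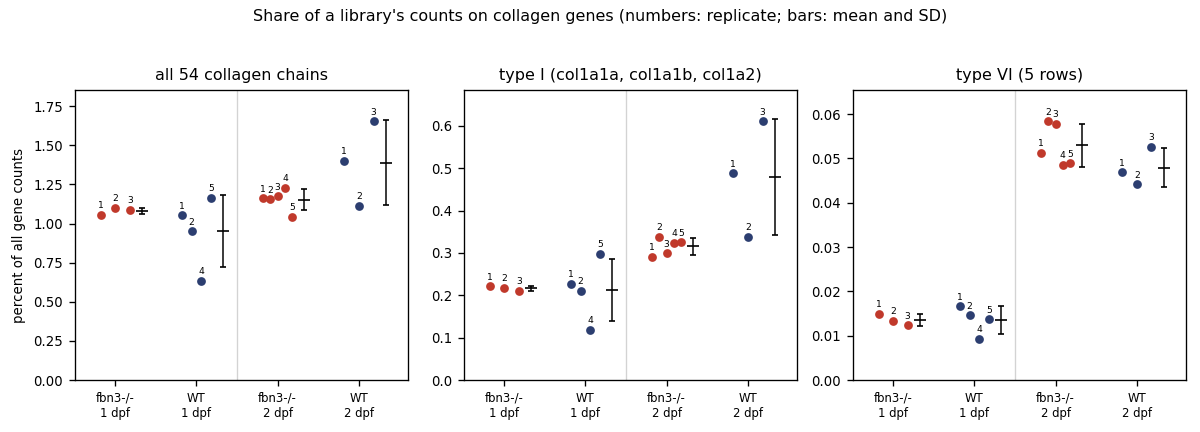
Share of each library's gene counts (percent, y axis) on all 54 collagen chains, on the 3 type I chains and on the 5 type VI entries, with replicate numbers, group means and SD, for *fbn3*-/- (red) and WT (blue) at 1 and 2 dpf. WT libraries spread more than *fbn3*-/- libraries in the left and middle panels, with replicate 4 lowest at 1 dpf (0.635% of all counts) and replicate 3 highest at 2 dpf (1.65%).

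The first comparison asked how each chain differed between 2 and 1 dpf within a genotype. Differences are log2 fold changes (log2FC) of 2 dpf over 1 dpf with their standard error (SE), and a chain was called where the Benjamini-Hochberg adjusted p (FDR) of edgeR's quasi-likelihood test was under 0.05 and the log2FC was past 1 in either direction. In *fbn3*-/- embryos 20 of 54 chains were higher at 2 dpf (37.0%, against 19.3% of all 23555 genes tested) and 6 were lower (11.1%, against 8.36%). In WT embryos 23 chains were higher (42.6%, against 17.7%) and 4 were lower (7.41%, against 9.4%). The median log2FC of the 54 chains was 0.41 in *fbn3*-/- and 0.69 in WT, beside a median of -0.04 over all genes in WT and one within 0.01 of 0 in *fbn3*-/-. Of the chains that were higher, 19 were called in both genotypes, which is 95% of those called in *fbn3*-/- and 82.6% of those in WT, and 4 of the chains that were lower were called in both.

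Type VI collagen, the beaded microfibril collagen of muscle and connective tissue, was higher at 2 dpf throughout. All 5 entries were called in both genotypes, with log2FC between 1.62 and 2.17 in *fbn3*-/- and between 1.54 and 1.90 in WT. *col6a1* was at 148 to 169 CPM at 2 dpf, against 34.2 to 47.8 at 1 dpf, in *fbn3*-/-, and at 129 to 158 CPM at 2 dpf, against 34.2 to 64.0 at 1 dpf, in WT. *col6a2* was at 109 to 135 CPM at 2 dpf, against 22.7 to 34.9 at 1 dpf, in *fbn3*-/-, and at 89.4 to 112 CPM, against 20.5 to 47.4, in WT. The stages did not overlap in either gene. The entry of *col6a3* with most counts (ENSDARG00000077139) had a log2FC of 2.17 (SE 0.18, FDR 1.44e-07) in *fbn3*-/- and of 1.86 (SE 0.17, FDR 4.39e-07) in WT. *col6a4a*, a further alpha chain of this type, had one of 1.62 (SE 0.17) in *fbn3*-/- and 1.71 (SE 0.17) in WT. Between the stages, 19.3% of all genes tested were higher and 8.36% lower in *fbn3*-/-, and 17.7% and 9.4% in WT. Of 6 skeletal muscle markers, 4 were higher and 1 lower at 2 dpf in *fbn3*-/-, and 1 was higher and 1 lower in WT. The WT count of higher markers lies near the share of all genes. Of 6 markers of sclerotome and tendon fibroblasts 2 were higher in both genotypes. The part of muscle, sclerotome and tendon cells in the type VI values was not tested.

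Both transmembrane type XVII chains were higher at 2 dpf in both genotypes. *col17a1a*, whose mammalian counterpart is a hemidesmosome protein of basal keratinocytes, was at 148 to 200 CPM at 2 dpf, against 2.03 to 4.87 at 1 dpf, in *fbn3*-/-, and at 209 to 266 CPM, against 2.66 to 4.33, in WT. These are differences of 58.9-fold in *fbn3*-/- (FDR 1.68e-09) and of 72.8-fold in WT (FDR 7.26e-10). *col17a1b* was at 14.2 to 20.8 CPM at 2 dpf, against 0.857 to 2.29 at 1 dpf, in *fbn3*-/-, and at 16.7 to 30.0 CPM, against 1.77 to 2.54, in WT. None of the 5 basal epidermis markers examined (*tp63*, *krt5*, *lamb4*, *itgb4*, *itga6b*) was called between the stages in either genotype. Of all genes, 27.7% were called in *fbn3*-/- and 27.1% in WT, shares at which 5 markers may hold no call. Their median log2FC was -0.32 in *fbn3*-/- and 0.20 in WT. Their summed level was 1234 to 1668 CPM at 2 dpf, against 1514 to 2318 CPM at 1 dpf, in *fbn3*-/-, and 1605 to 1998 CPM, against 1103 to 2425 CPM, in WT.

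The short-chain network collagens of types VIII and X differed in direction, with 3 of 5 higher and 1 lower at 2 dpf in *fbn3*-/- and 4 higher and 1 lower in WT. *col10a1a*, a marker of hypertrophic cartilage and of osteoblasts in zebrafish, was at 71.5, 37.0, 40.6, 19.8 and 21.9 CPM in the 5 *fbn3*-/- libraries of 2 dpf and at 31.8, 48.8 and 58.1 CPM in the WT libraries. At 1 dpf it had 2 counts in all *fbn3*-/- libraries together and 1 count in all WT libraries together. The ratio of summed counts, scaled by the same library sizes as the CPM, was 3784 in *fbn3*-/- (95% exact counting interval 1047 to 31252). In WT it was 11217 (2013 to 443079). Both intervals cover counting error only. Among 6 osteoblast markers tested, *runx2a*, *runx2b*, *entpd5a* and *ifitm5* were higher at 2 dpf in both genotypes (19.3% of all genes were in *fbn3*-/- and 17.7% in WT). *sp7* and *spp1* were not called, and *bglap* was too low to test. Summed over the list, these markers were at 9.17 to 12.1 CPM at 2 dpf, against 4.91 to 6.62 CPM at 1 dpf, in *fbn3*-/-, and at 9.01 to 13.2 CPM, against 5.16 to 7.81 CPM, in WT, and their part in the *col10a1a* values was not tested. *col8a1a*, a type VIII chain needed for a normal notochord in zebrafish, was lower at 2 dpf, at 26.2 to 47.0 CPM against 144 to 220 CPM over all 1 dpf libraries of *fbn3*-/- and WT, with log2FC of -2.44 (SE 0.17) and -2.26 (SE 0.20). In the same libraries *col8a2*, its partner chain in mammals, was higher in WT (log2FC 1.32, FDR 0.00036) and had a log2FC of 0.92 in *fbn3*-/- (FDR 0.00477). Of 7 notochord markers, 4 were lower and 1 was higher at 2 dpf in both genotypes. Of all genes, 8.36% were lower and 19.3% higher in *fbn3*-/-, and 9.4% and 17.7% in WT.

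Fibrillar collagens fell into several patterns. *col2a1a* and *col2a1b* of type II, *col11a1a* and *col11a2* of type XI (the collagen that starts type II fibrils) and *col5a1* of type V (which starts type I fibrils) were not called in either genotype, with log2FC between -0.34 and 0.29. *col2a1a* was at 1032 to 1738 CPM at 2 dpf, against 1568 to 1889 at 1 dpf, in *fbn3*-/-, and at 1305 to 1607 CPM, against 1159 to 2175, in WT. *col5a2b* of type V (log2FC 1.5 and 1.94) and *col27a1b*, which is needed for the notochord and the spine in zebrafish (1.09 and 1.33), were higher in both *fbn3*-/- and WT, the *col27a1b* call in *fbn3*-/- falling below the fold limit without *fbn3*-/- replicate 1 of 1 dpf (0.97). *col5a3a* had the largest fall in *fbn3*-/-, at 6.73 to 10.4 CPM at 2 dpf, against 55.7 to 96.9 CPM at 1 dpf, and it was at 7.29 to 16 CPM, against 36.5 to 76.3 CPM, in WT. Its duplicate *col5a3b* was not lower in either genotype and was higher at 2 dpf in WT (log2FC 1.23, SE 0.29, FDR 0.00231), or 0.89 without WT replicate 3 of 2 dpf, below the fold limit.

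Of the type I chains, the main fibril collagen of skin, bone and tendon, *col1a1a* (log2FC 1.09, SE 0.26, FDR 0.00207) and *col1a1b* (1.17, SE 0.24, FDR 0.000646) rose in WT and *col1a2* was below the fold limit (0.81, FDR 0.00362). In *fbn3*-/- the log2FC was 0.47 for *col1a1a* (FDR 0.124), 0.65 for *col1a1b* (FDR 0.027) and 0.32 for *col1a2* (FDR 0.19), none of them called. Both WT calls fell below the fold limit without WT replicate 4 of 1 dpf (0.88 for *col1a1a* and 0.97 for *col1a1b*) and without WT replicate 3 of 2 dpf (0.87 and 0.96), each with an FDR that stayed under 0.05 in edgeR's quasi-likelihood test. The difference between the genotypes in this change did not pass the test (-0.62 for *col1a1a*, SE 0.36, FDR 0.892).

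Among the FACIT collagens of cartilage, 1 of the type IX chains stood apart. *col9a1a* was at 88.6 to 148 CPM at 2 dpf, against 6.66 to 19.7 CPM at 1 dpf, in *fbn3*-/-, and at 72.5 to 106 CPM, against 5.55 to 27.1 CPM, in WT, a difference of 7.95-fold and 5.67-fold. Its partners *col9a2*, *col9a3* and the duplicate *col9a1b* were not called in either genotype (log2FC between -0.57 and -0.01). Among 8 cartilage markers 3 were higher at 2 dpf in *fbn3*-/- (19.3% of all genes were). In WT 2 were higher (17.7% of all genes) and 1 lower (9.4%). The type XIV duplicates went opposite ways, with *col14a1b* higher at 2 dpf (log2FC 1.90 in *fbn3*-/- and 2.3 in WT) and *col14a1a* lower (-2.09 and -1.57). *col14a1a* was at 30.1 to 45.0 CPM at 2 dpf, against 111 to 217 CPM at 1 dpf, in *fbn3*-/-, and at 39.4 to 51.8 CPM, against 86.6 to 222 CPM, in WT. Type XIX, at both *col19a1* entries, was higher in both genotypes with log2FC between 1.14 and 1.73, although the entry ENSDARG00000076163 fell to 0.91 in *fbn3*-/- without replicate 1 of 1 dpf. *col12a1a* of type XII had FDRs of 0.000336 and 0.000339 at log2FC of 0.88 in *fbn3*-/- and 0.90 in WT, below the fold limit, and it passed that limit in WT without replicate 2 of 2 dpf (1.11).

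Few chains of basement membranes and of their anchorage were called between the stages. Of the 6 type IV chains, *col4a4* was lower in *fbn3*-/- (log2FC -1.60, FDR 0.000271) and no other was called in either genotype, with *col4a1* at 0.33 in *fbn3*-/- and 0.64 in WT and *col4a2* at 0.31 and 0.72. In WT *col4a4* was at 5.56 to 9.31 CPM at 2 dpf, against 7.92 to 24.3 CPM at 1 dpf. It missed the call there with all libraries but was called without WT replicate 4 of 1 dpf (-1.02). *col7a1l*, a type VII chain by its symbol, was lower in both genotypes (-2.11, SE 0.23, in *fbn3*-/- and -1.19, SE 0.25, in WT), although the WT call fell below the fold limit without WT replicate 5 of 1 dpf (-0.98). It was at 26.9 to 39.4 CPM at 2 dpf, against 87.6 to 177 CPM at 1 dpf, in *fbn3*-/-, and at 32.9 to 45.2 CPM, against 60.8 to 130 CPM, in WT. *col7a1*, the anchoring fibril chain, was called lower in *fbn3*-/- (-1.35, SE 0.30, FDR 0.00138) and was at -0.34 (SE 0.33) in WT, and the difference between the genotypes did not pass the test (-1.0, SE 0.44, FDR 0.889). Of the multiplexins, basement membrane zone collagens that carry heparan or chondroitin sulfate chains, *col18a1b* was higher at 6.5 to 9.78 CPM over all 2 dpf libraries, against 0.409 to 1.25 CPM over all 1 dpf libraries. *col18a1a*, the duplicate with more counts, had a log2FC of -0.76 in *fbn3*-/- (FDR 0.0018) and -0.17 in WT, and *col15a1b* one of -0.92 (FDR 1.57e-05) and -0.45 (FDR 0.00981), all below the fold limit. Of the 4 chains of type XXVIII, known from basement membranes of peripheral nerve in mouse, *col28a1a* and *col28a2b* were higher in both genotypes, *col28a2b* at 0.914 to 2.36 CPM over all 2 dpf libraries, against 0 to 0.327 CPM over all 1 dpf libraries. *col28a2a* varied so much within groups that its log2FC of -1.42 (SE 0.80) and -1.55 (SE 0.89) were not called. It was at 58.2 to 137 CPM in *fbn3*-/- and at 12.9 to 171 CPM in WT at 2 dpf, and at 163 to 433 CPM in *fbn3*-/- and at 27.7 to 492 CPM in WT at 1 dpf.

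**Figure D2:**
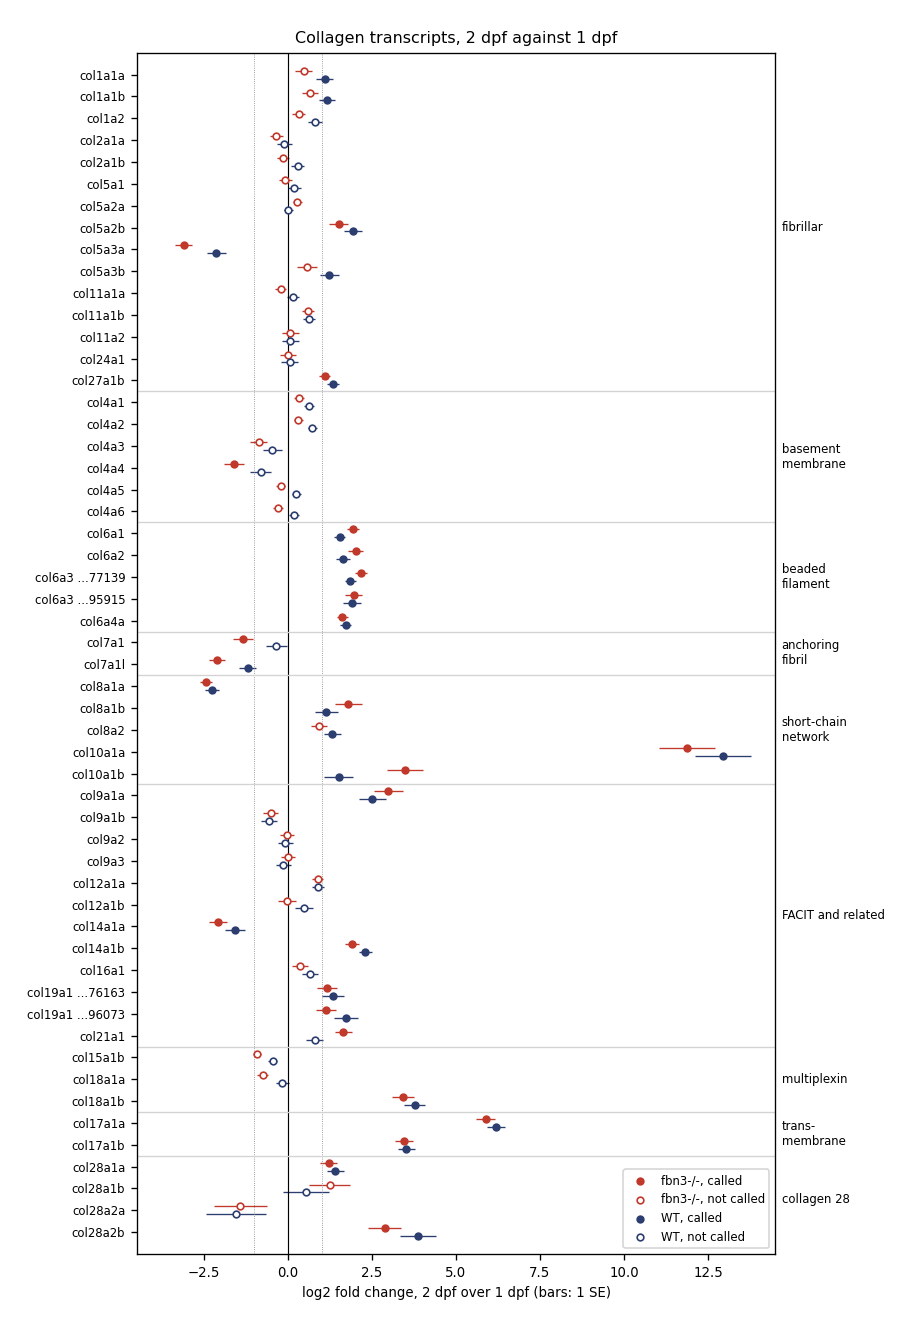
Log2 fold change of 2 dpf over 1 dpf (x axis) for each of the 54 collagen chains by class, in *fbn3*-/- (red, 5 against 3 libraries) and WT (blue, 3 against 4 libraries), with bars of 1 SE and filled points for called chains. All 5 type VI entries lie to the right of 1 in both genotypes, and *col10a1a*, with 2 and 1 counts at 1 dpf, lies farthest right at 11.88 in *fbn3*-/- and 12.96 in WT, fitted values that depend on the prior count.

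Chains that assemble into the same molecule kept steady ratios across libraries in some types and not in others. The log2 ratio of *col4a5* to *col4a6*, which lie next to each other in RefSeq, spanned 0.24 over the 15 libraries, while the chains themselves spanned 0.70 and 0.72. The other type IV pairs are neighbours there too, and their ratios spanned 0.49 (*col4a1* to *col4a2*) and 1.04 (*col4a3* to *col4a4*). The ratio of *col6a1* to *col6a2* spanned 0.45 while the chains spanned 2.31 and 2.72, and that of *col1a1a* to *col1a1b* spanned 0.39 while both chains spanned more than 2.3. The ratio of *col9a2* to *col9a3* spanned 0.27. By contrast, the ratio of *col9a1a* to *col9a2* spanned 4.03 and that of *col8a1a* to *col8a2* spanned 4.02, with the stages apart in both genotypes. These are descriptions over 15 libraries that share their depth scaling within a library, and no test was made of them.

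**Figure D3:**
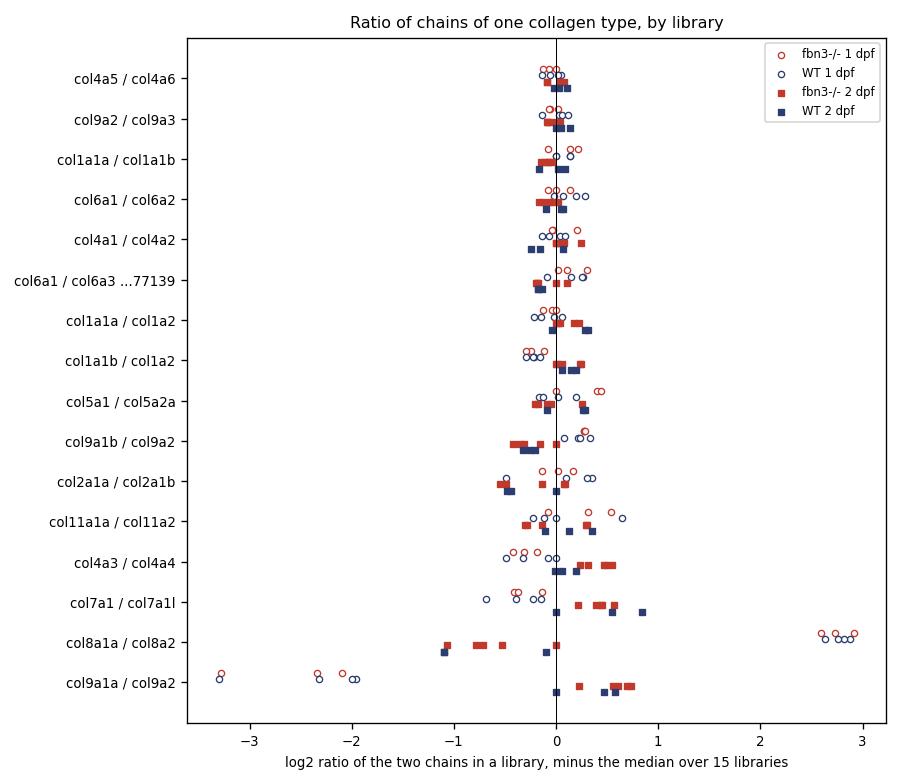
Log2 ratio of 2 chains of the same collagen type in each of the 15 libraries (x axis, minus the median ratio), with open circles for 1 dpf, filled squares for 2 dpf, red for *fbn3*-/- and blue for WT. The ratio of *col4a5* to *col4a6* stays within a span of 0.24, whereas *col8a1a* to *col8a2* and *col9a1a* to *col9a2* separate the stages and span about 4.

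The second comparison asked whether *fbn3*-/- embryos differed from WT at 1 dpf. None of the 54 chains was called by edgeR's quasi-likelihood test, beside 0.00425% of all genes tested, which is *fbn2b* alone. Before adjustment, p was under 0.05 in 4 chains (7.41%, against 7.34% of all genes), and DESeq2 and edgeR's likelihood ratio test also called none. The log2FC, *fbn3*-/- over WT, was above 0 in 39 chains (44.9% of all genes were) and below 0 in 15, with a median of 0.16 beside -0.03 over all genes. This balance rested on WT replicate 4, without which 24 chains were above 0 and 30 below with a median of -0.01. Of the 4 chains at p under 0.05 with all libraries, 3 were higher in *fbn3*-/- and 1 was lower. Without WT replicate 4 there were 5 such chains, all lower. The number of chains at p under 0.05 was 15 without WT replicate 5, 14 without *fbn3*-/- replicate 1, 1 without *fbn3*-/- replicate 2 and 0 without *fbn3*-/- replicate 3. Within the low-numbered libraries 26 were above 0 and 28 below, with a median of -0.01.

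Of the chains of the basement membrane and its anchorage, all 6 of type IV, both of type VII and all 3 multiplexins had log2FC above 0 at 1 dpf, against 44.9% of all genes, and both type XVII chains were below 0 (-0.14 for *col17a1a* and -0.33 for *col17a1b*). Over all 54 chains the excess above 0 was absent without WT replicate 4, a count that was not made for these classes alone. Both type VII chains stayed above 0 when WT replicate 4 was left out. *col7a1l* was at 87.6, 165 and 177 CPM in *fbn3*-/-, against 89.9, 87.5, 60.8 and 130 CPM in WT. *col7a1* was at 146, 227 and 252 CPM in *fbn3*-/-, against 126, 146, 69.7 and 204 CPM in WT. In both genes 2 *fbn3*-/- libraries lay above all WT libraries and the third lay among them. The log2FC was 0.64 for *col7a1l* (SE 0.24, FDR 0.649) and 0.62 for *col7a1* (SE 0.32, FDR 0.694). With single libraries left out, that of *col7a1l* was between 0.46 (without *fbn3*-/- replicate 3) and 0.90 (without *fbn3*-/- replicate 1), with an FDR between 0.107 and 1. That of *col7a1* was between 0.40 (without WT replicate 4) and 0.87 (without WT replicate 5), with an FDR between 0.354 and 1. The summed level of the 5 basal epidermis markers was 1514 to 2318 CPM in *fbn3*-/-, against 1103 to 2425 CPM in WT, with 5 of 5 above 0 and 0 called, and that of 8 entries of fin fold markers was 505 to 682 CPM, against 368 to 584 CPM. Of the fin fold entries 6 were above 0, with a median log2FC of 0.40, and 6 had p under 0.05 before adjustment, *fbln1*, *frem2a* and both *hmcn2* entries above 0 and the fin fibre genes *and1* and *and2* below (both -1.39). None of them was called. The part of these cells in the type VII values was not tested.

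*col5a3a*, a type V chain, was at 55.7, 78.5 and 96.9 CPM in *fbn3*-/-, against 36.5, 48.5, 44.9 and 76.3 CPM in WT (log2FC 0.58, SE 0.26, FDR 0.677). The *col19a1* entry ENSDARG00000096073 was at 0.908, 1.15 and 1.27 CPM in *fbn3*-/-, against 0.787, 0.602, 0.346 and 0.823 CPM in WT. Its libraries did not overlap, and the log2FC was 0.88 (SE 0.38) with an FDR of 0.668.

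In the opposite direction, 2 chains of the short-chain networks had all *fbn3*-/- libraries below all WT libraries, both at very low levels. *col10a1b* was at 0.0447, 0.0917 and 0.0199 CPM in *fbn3*-/-, against 0.219, 0.219, 0.166 and 0.121 CPM in WT, and *col8a1b* at 0.0893, 0.153 and 0.11 CPM, against 0.240, 0.246, 0.235 and 0.194 CPM. An exact permutation test over libraries gave p = 0.0286 for each, the smallest value that 3 against 4 libraries allow in a 2-sided test, and the FDR was 0.649 and 0.683. In all, 3 of 54 chains (5.56%) had libraries that did not overlap, against 5.88% of all genes, with 1 higher (2.89% of all genes) and 2 lower (2.99%), shares near those of the whole table. *col21a1*, a FACIT chain found in vessel walls in humans, had a log2FC of -0.45 (SE 0.27) and *col14a1b*, a type XIV chain, one of -0.38 (SE 0.20), with overlapping libraries.

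The same comparison at 2 dpf again called none of the 54 chains, beside 0.178% of all genes tested, made up of 0.136% higher and 0.0425% lower. DESeq2 and the likelihood ratio test called none either. Before adjustment, p was under 0.05 in 7 chains (13%, against 10.4% of all genes), all of them lower in *fbn3*-/-, and the lowest FDR was 0.114. The log2FC was below 0 in 31 chains and above 0 in 23 (51.6% of all genes were above), with a median of -0.12 beside 0.01 over all genes. Without WT replicate 2 the split was 43 below and 11 above 0 with a median of -0.23 and 15 chains at p under 0.05, and without WT replicate 3 it was 30 and 24 with a median of -0.03 and 1 such chain. The median was -0.13 within the low-numbered and within the high-numbered libraries, each with 32 chains below 0. Here and below, low-numbered values of 2 dpf set 3 *fbn3*-/- libraries against 1 WT library, replicate 1. High-numbered values set 2 libraries against 2.

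**Figure D4:**
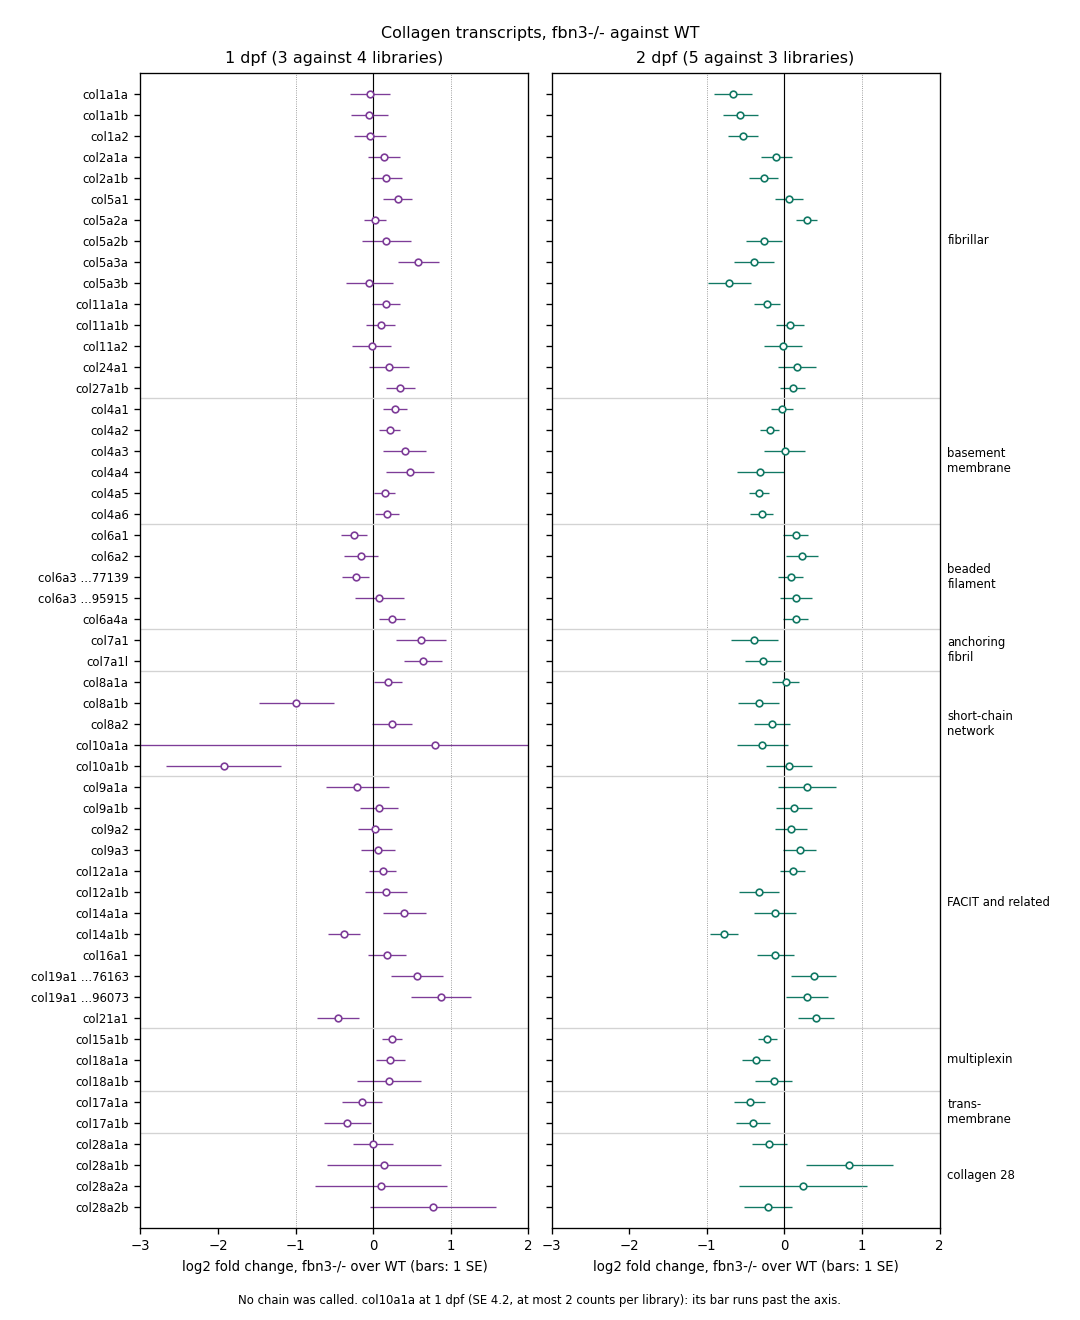
Log2 fold change of *fbn3*-/- over WT (x axis) for each of the 54 collagen chains by class, at 1 dpf (left, 3 against 4 libraries) and 2 dpf (right, 5 against 3 libraries), with bars of 1 SE. No chain was called at either stage, and both type VII chains, all 3 multiplexins and 5 of 6 type IV chains lie on opposite sides of 0 in the panels.

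*col14a1b*, a type XIV FACIT chain, had the lowest p of all chains. It was at 49.0, 70.8, 59.9, 60.4 and 63.3 CPM in *fbn3*-/-, against 96.8, 85.3 and 131 CPM in WT at 2 dpf. Every *fbn3*-/- library lay below every WT library (exact permutation p = 0.0179, the smallest that 5 against 3 libraries allow in a 2-sided test). The log2FC was -0.78 (SE 0.18, FDR 0.114), or 0.582 of the WT level. It was -0.71 within the low-numbered and -0.77 within the high-numbered libraries, and -0.59 without WT replicate 3. DESeq2 (FDR 0.0129) and the likelihood ratio test (FDR 0.016) put it under the FDR limit at log2FC of -0.80 and -0.78, still short of the fold limit, and the FDR was between 0.0547 and 0.685 when single libraries were left out. At 1 dpf it was at 19.1, 15.1 and 14.8 CPM in *fbn3*-/-, against 22.8, 17.1, 16 and 29.2 CPM in WT, which overlap.

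The 3 type I chains moved together between libraries at 2 dpf. *col1a1a* was at 1104, 1321, 1139, 1335 and 1324 CPM in *fbn3*-/-, against 2181, 1201 and 2528 CPM in WT. *col1a1b* was at 788, 992, 839, 979 and 1018 CPM in *fbn3*-/-, against 1429, 942 and 1736 CPM in WT. *col1a2* was at 814, 985, 864, 862 and 887 CPM in *fbn3*-/-, against 1330, 937 and 1568 CPM in WT. In each of the 3 genes WT replicates 1 and 3 lay above all *fbn3*-/- libraries and WT replicate 2 lay among them. The log2FC was -0.66 for *col1a1a* (SE 0.24, FDR 0.361), -0.57 for *col1a1b* (SE 0.22, FDR 0.391) and -0.54 for *col1a2* (SE 0.20, FDR 0.359). For *col1a1a* it was -0.95 without WT replicate 2 (FDR 0.193) and -0.44 without WT replicate 3. Within the low-numbered libraries it was -0.88 and within the high-numbered libraries -0.39. With single libraries left out, the log2FC was between -0.81 and -0.36 for *col1a1b* and between -0.74 and -0.36 for *col1a2*. *col5a3b*, a type V chain, also had WT replicate 2 among the *fbn3*-/- libraries and WT replicates 1 and 3 above them, with 144, 238, 199, 196 and 205 CPM in *fbn3*-/-, against 323, 183 and 459 CPM in WT (log2FC -0.71, SE 0.28, FDR 0.388), and the log2FC was -1.02 without WT replicate 2 and -0.36 without WT replicate 3. At 1 dpf the type I chains were at 883, 911 and 904 CPM (*col1a1a*), 651, 578 and 542 CPM (*col1a1b*) and 728, 710 and 684 CPM (*col1a2*) in *fbn3*-/-, and the WT libraries lay on both sides of them, at 489 to 1261, 340 to 801 and 431 to 920 CPM.

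*col17a1a*, the hemidesmosome collagen, was at 177, 200, 190, 148 and 163 CPM in *fbn3*-/-, against 209, 244 and 266 CPM in WT. The libraries did not overlap, with replicate 2 of *fbn3*-/- close to replicate 1 of WT, and the log2FC was -0.45 (SE 0.20, FDR 0.458; exact permutation p = 0.0179). It was -0.15 within the low-numbered and -0.72 within the high-numbered libraries. *col17a1b* had a log2FC of -0.41 (SE 0.22, FDR 0.54) with overlapping libraries. *col4a5* of type IV was the remaining chain at p under 0.05 (log2FC -0.32, SE 0.13, FDR 0.391), at 441 to 535 CPM in *fbn3*-/- and 514 to 657 CPM in WT. The basal epidermis markers summed to 1234 to 1668 CPM in *fbn3*-/- and to 1605 to 1998 CPM in WT at 2 dpf, with 4 of 5 below 0 and 0 called, and the fin fold markers to 709 to 918 CPM and 730 to 1191 CPM. Their part in these values was not tested.

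*col21a1* was the chain whose *fbn3*-/- libraries all lay above WT at 2 dpf, at 6.39, 8.19, 7.82, 8.22 and 6.65 CPM against 5.47, 5.40 and 6.02 CPM. The log2FC was 0.41 (SE 0.23, FDR 0.562; exact permutation p = 0.0357). At 1 dpf it was at 2.99, 1.80 and 2.34 CPM in *fbn3*-/- and 2.84, 3.34, 1.81 and 5.37 CPM in WT, on balance the other way. *col5a2a* of type V was at 297, 342, 345, 324 and 246 CPM in *fbn3*-/-, against 277, 232 and 255 CPM in WT (log2FC 0.29, SE 0.14, FDR 0.485), with *fbn3*-/- replicate 5 among the WT libraries. *col28a1b* was at 3.03, 2.40, 2.34, 1.85 and 1.09 CPM in *fbn3*-/-, against 2.08, 0.738 and 0.820 CPM in WT (log2FC 0.84, SE 0.56), and the *col19a1* entry ENSDARG00000076163 at 7.86, 11.8, 12.6, 10.7 and 5.07 CPM, against 9.04, 5.77 and 7.46 CPM (0.38, SE 0.29). Both overlapped. In all, 3 of 54 chains (5.56%) had libraries that did not overlap at 2 dpf, against 6.19% of all genes, with 1 higher (3.74% of all genes) and 2 lower (2.45%). All 5 type VI entries had log2FC above 0, between 0.08 and 0.23, none with p under 0.05.

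**Figure D5:**
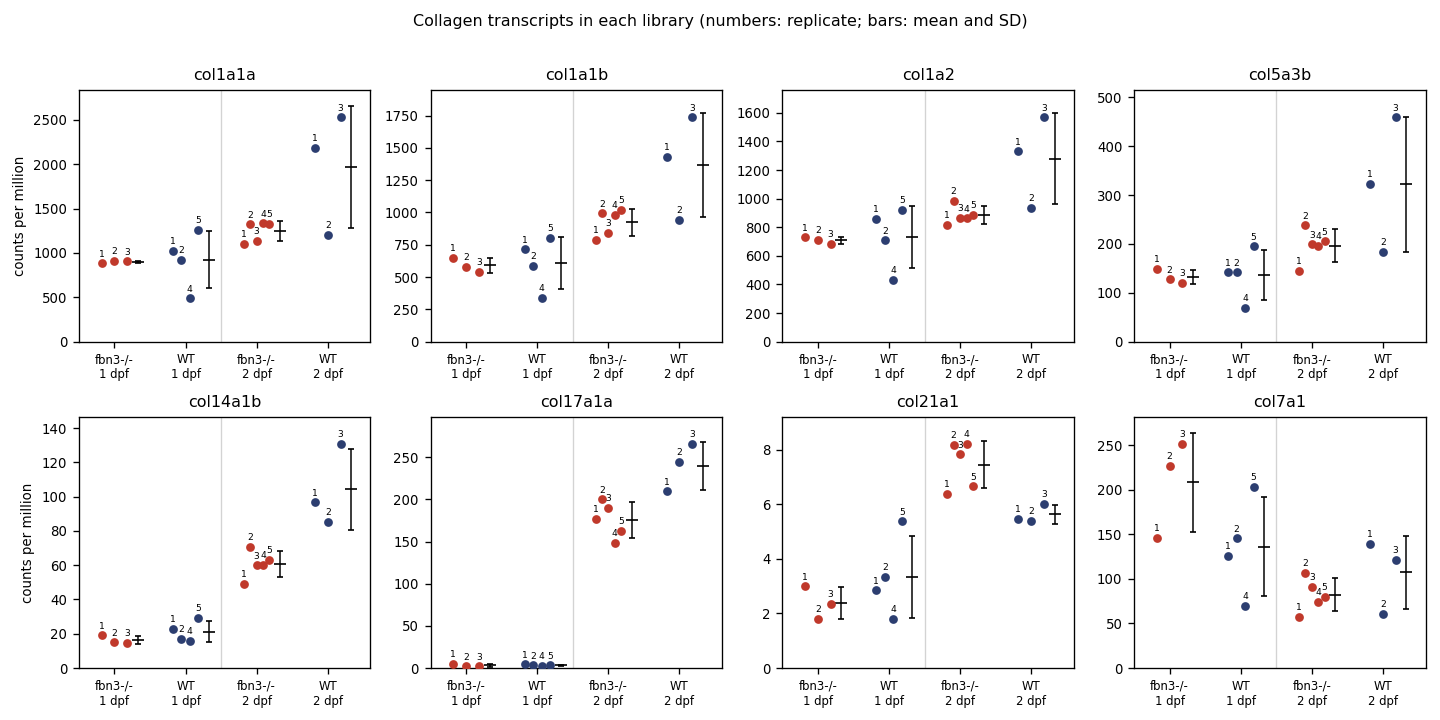
CPM of 8 collagen chains in each library (y axis, from 0), with replicate numbers, group means and SD, for *fbn3*-/- (red) and WT (blue) at 1 and 2 dpf. At 2 dpf *col14a1b* and *col17a1a* have every *fbn3*-/- library below every WT library and *col21a1* has every *fbn3*-/- library above, whereas WT replicate 2 falls among the *fbn3*-/- libraries in the 3 type I chains and in *col5a3b*.

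The difference of the genotype effects between the stages (log2FC at 2 dpf minus log2FC at 1 dpf) was called for none of the 54 chains, beside 0.00425% of all genes. Before adjustment, p was under 0.05 in 10 chains (18.5%, against 5.51% of all genes), and the lowest FDR was 0.889. DESeq2 and the likelihood ratio test called none. The difference was below 0 in 39 chains and above 0 in 15 (57.1% of all genes were above), with a median of -0.30 beside 0.05 over all genes, and without WT replicate 4 of 1 dpf the median was -0.15. The number of chains at p under 0.05 was 0 without *fbn3*-/- replicate 3 of 1 dpf, 4 without *fbn3*-/- replicate 2 of 1 dpf or WT replicate 3 of 2 dpf, 5 without WT replicate 1 of 2 dpf, 6 without WT replicate 2 of 1 dpf, and 17 without WT replicate 5 of 1 dpf or WT replicate 2 of 2 dpf. Below 0 with p under 0.05 were the basement membrane chains *col4a2*, *col4a5* and *col4a6* (-0.41 to -0.47), the multiplexins *col15a1b* (-0.46) and *col18a1a* (-0.59), both type VII chains (-1.0 for *col7a1* and -0.92 for *col7a1l*) and *col5a3a* (-0.97). Above 0 were *col10a1b* (1.98, SE 0.80) and *col21a1* (0.86, SE 0.36). Each of these 10 had an FDR of 0.889 in edgeR's quasi-likelihood test. The balance of directions among chains at p under 0.05 rested on WT replicate 4 of 1 dpf. Without it p was under 0.05 in 10 chains, 6 of them above 0 and 4 below, against 2 above and 8 below with all libraries. Over all 54 chains, the difference was still below 0 in 35 and above 0 in 19 without that library. Different chains can reach the p limit in the 2 fits, so these counts do not show that a named chain changed direction.

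Genes that make, process, bind or cut collagen were read from 4 lists with 75 genes tested. By genotype, none was called at either stage among 26 genes of folding, hydroxylation and secretion, 31 of procollagen cleavage and fibril assembly and 11 receptors. Of all genes tested, 0.00425% were called at 1 dpf and 0.178% at 2 dpf, shares at which lists of this size may hold no call. Of 7 entries of collagenases and gelatinases, 2 were called higher in *fbn3*-/- at 2 dpf (0.136% of all genes were), *mmp9*, a gelatinase (log2FC 2.78, FDR 0.0178), and *mmp13a* at ENSDARG00000012395, an interstitial collagenase (2.57, FDR 0.00314). This *mmp13a* entry, 1 of 2 under that symbol and so uncertain, was at 3.90, 6.10, 4.56, 7.38 and 9.42 CPM in *fbn3*-/-, against 1.17, 0.571 and 1.39 CPM in WT, with no overlap. The *mmp9* call was lost without WT replicate 2 (FDR 0.0825) or WT replicate 3 (FDR 0.126), with a log2FC of 2.79 and 2.80. All 7 entries had log2FC above 0 (51.6% of all genes were), and 5 had p under 0.05 before adjustment (10.4% of all genes). *mmp13b* was at 0.566 to 1.32 CPM in *fbn3*-/-, against 0.0499 to 0.219 CPM in WT, with no overlap and a log2FC of 2.99 (SE 0.68, FDR 0.1). It was called with DESeq2 (FDR 0.00104), with the likelihood ratio test (FDR 0.00806) and without WT replicate 1 (FDR 0.0473). The other *mmp13a* entry, ENSDARG00000114451, was at 7.45 to 22.1 CPM in *fbn3*-/-, against 3.32 to 6.49 CPM in WT, also with no overlap (log2FC 1.20, SE 0.47, FDR 0.384). Of all genes, 3.74% had every *fbn3*-/- library above every WT library at 2 dpf. *mmp2* (0.08), *mmp14a* (0.03) and *mmp14b* (0.19), which are broad collagen-degrading or activating enzymes, were not called.

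Between the stages, 10 of the 31 assembly genes were higher and 1 lower at 2 dpf in *fbn3*-/- (19.3% and 8.36% of all genes were), and 8 were higher and 1 lower in WT (17.7% and 9.4%). Of the 11 receptors 4 were higher and 1 lower in *fbn3*-/- and 2 higher and 1 lower in WT, and of the 7 collagenase and gelatinase entries 3 were higher and 0 lower in *fbn3*-/- and 1 higher and 1 lower in WT. The small leucine-rich proteoglycans *prelp* (log2FC 4.29 in *fbn3*-/- and 4.75 in WT), *bgna* (3.50 and 4.04), *fmodb* (3.12 and 2.92) and *lum* (1.42 and 1.26), which coat collagen fibrils, were among the genes higher in both genotypes, as was *fn1b*, a fibronectin (2.41 and 1.91). *adamts3*, a procollagen N-proteinase, was lower (-1.13 and -1.06). Of the 26 folding and secretion genes, *p4ha3*, a prolyl hydroxylase subunit, was higher in both genotypes (2.04 in *fbn3*-/- and past the fold limit in WT), and *p4ha1b* (-1.10) and the lysyl hydroxylase *plod2* (-1.07) were lower in *fbn3*-/-. The median log2FC of that list was -0.42 in *fbn3*-/- and -0.41 in WT. Among 11 receptors, the collagen-binding kinase *ddr2b* was higher (3.61 and 3.68) and its relative *ddr1* lower (-1.02 and -1.10) in both genotypes. The *ddr1* call in *fbn3*-/- sat at the fold limit and held in 11 of 17 alternatives. It fell below the limit with upper-quartile scaling (-0.96), no filter or the CPM filter (both -0.99), and without *fbn3*-/- replicate 3 of 1 dpf (-0.93) or *fbn3*-/- replicate 1 or 5 of 2 dpf (both -0.97).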

How the data were processed

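Gene counts were deposited by the authors as 1 merged table. According to the study and the submitters' processing notes, reads of stranded total RNA libraries were trimmed with Trim Galore 0.6.6, checked with FastQC 0.11.9, aligned to GRCz11 with STAR 2.7.6a and counted per gene with featureCounts (Subread 2.0.0). The counts are raw, with no entry that names no gene. Of 23 count columns, 15 matched a sample and 8 columns of no listed sample were not used. WT replicate 3 of 1 dpf matched no column and was not analysed here.

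Genes with too few counts were removed with filterByExpr (minimum count 10, minimum total 15), which left 23555 genes and all 54 collagen chains. Counts were scaled by TMM and fitted in 1 model of 4 groups with edgeR 4.0.16 (R 4.3.3, limma 3.58.1) by the quasi-likelihood test, with Benjamini-Hochberg adjustment over all genes. Calls required FDR < 0.05 and a log2FC past 1. CPM are counts scaled to the TMM-scaled library size, and shares are counts over library totals. Single values were compared by exact 2-sided permutation of libraries (SciPy 1.17.1). Alternatives were RLE and upper-quartile scaling, DESeq2 1.42.0, edgeR's likelihood ratio test, no filter, a filter of CPM 1 in 3 libraries, separate fits of the stages, the library-number set as covariate or split, a replicate block and leaving out each library. The fits were tested on simulated data with known changes.

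Collagen genes were grouped by type number. Values per library are given for the 4 chains with the smallest p in each direction of each genotype contrast and for chains whose libraries do not overlap, and ranges or values for the 6 called rises and falls of largest size in WT between the stages and for chains with textbook roles. *col15a1a* and *col22a1*, on that last list, have no entry under these names. The members and lists were chosen with earlier results of these data known. Depth differed by up to several fold between libraries, so that chains at a few counts, such as *col10a1a*, *col10a1b* and *col8a1b* at 1 dpf, are the least precise. No sequences are shown.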

Additional observations from a re-analysis of the deposited data

Results flagged for a closer look

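Of 80 groups of 4 or 5 libraries examined over 39 named genes and the collagen share, 5 held a library far from the rest by Dixon's test, and chance alone marks about 1 in 20 groups. *col15a1b* was marked in WT at 1 dpf, where replicate 5 was at 91.5 CPM and the other libraries were at 71.5 to 72.1 CPM, and in *fbn3*-/- at 2 dpf, where replicate 4 was at 42.5 CPM and the others at 48.6 to 51.0 CPM. *col14a1a* was lowest in *fbn3*-/- replicate 1 of 2 dpf, at 30.1 CPM against 41.3 to 45.0 CPM in the others. *col18a1b* was highest in WT replicate 1 of 1 dpf, at 1.25 CPM against 0.415 to 0.492 CPM. *col10a1a* was at 0.0242 CPM, a single count, in WT replicate 5 of 1 dpf and at 0 in the other WT libraries of that stage.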

How the results depend on the processing

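No collagen chain was called between the genotypes, or for the difference of the genotype effects, under any alternative run. Between the stages 24 to 28 chains were called in *fbn3*-/- and 25 to 29 in WT over all alternatives, beside 26 and 27. The synthesis and processing genes called between the genotypes at 2 dpf were 2, against 4 with DESeq2, 4 with the likelihood ratio test, 1 with replicates 1 to 3 and a replicate block, and 1 to 5 when single libraries were left out (5 without WT replicate 1, 1 without WT replicate 2 or 3). The share of counts on collagen genes without *col2a1a* was 1.01% in *fbn3*-/- and 1.24% in WT at 2 dpf. At 1 dpf it was 0.909% in *fbn3*-/- and 0.804% in WT. Same-numbered libraries of the genotypes correlated at 0.16 and 0.02 at 1 dpf and between -0.16 and -0.03 at 2 dpf. Differently numbered libraries correlated between -0.16 and 0.10 at 1 dpf and between -0.24 and 0.27 at 2 dpf. So few pairs cannot decide whether same-numbered libraries were paired. With the replicate block the log2FC between the genotypes was above 0 in 26 chains and below 0 in 28 at each stage, and 28 chains were called between the stages in *fbn3*-/- and 26 in WT, where *col1a1a* was at 0.96, and *mmp9* had an FDR of 0.0581. Leaving out 1 library added or removed further stage calls near the fold limit. In *fbn3*-/- these were *col15a1b* (-1.03), *col4a3* (-1.02) and *col28a1b* (2.21), added without replicate 1 of 1 dpf, and *col8a2*, added without replicate 2 of 1 dpf or replicate 5 of 2 dpf. In WT they were *col4a4* (-1.02), added without replicate 4 of 1 dpf, *col12a1a* and *col21a1* (1.09), added without replicate 5 of 1 dpf, *col1a2* (1.04), added without replicate 2 of 2 dpf, *col28a2a* (-2.67), added without replicate 3 of 2 dpf, and *col8a1b* (0.95), removed without replicate 1 of 2 dpf. *adamts3* in WT fell below the fold limit with upper-quartile scaling (-0.99) and with no filter (-0.98). Separate fits of the stages give no contrast between them. Of 1246 values of single genes under alternatives, 1210 were marked unchanged, 17 lost a call, 3 gained one and 16 moved. Refitted values were marked unchanged when they kept their direction and call. Differences within the library-number sets were marked unchanged when they lay within 1 pooled SD of the main log2FC, and moved otherwise. With 3 to 5 pools a group, the type I differences at 2 dpf were not called, and WT replicate 2 lay among the *fbn3*-/- libraries in each of the 3 chains. The part of the spread of the WT pools in these differences was not tested.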
